A study of Mus musculus with 6 samples.

Results

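The genes described here are the forkhead factors Foxo1 and Foxo3 and 8 genes known as targets that PI3K signalling keeps low: Klhl24, Ypel3, Trp53inp1, Pik3ip1, Irs2, Insr, Ccng2 and Txnip. They were chosen by symbol from the table of counts. All 10 were found there, among 53733 named rows, and all 10 were among the 13652 rows with enough counts to be tested. The cells were a mouse acute myeloid leukaemia line made from foetal liver cells with a constitutively expressed retroviral MLL-AF9 vector that also carries the Luc2 luciferase. The same cells held a TRE-tight-DsRED-IRES-FLT3-ITD vector, in which FLT3-ITD, a mutant and constantly active FLT3 receptor kinase, is transcribed while doxycycline is present. Both groups therefore shared MLL-AF9, and both had been grown for 96 h in NSG mice, an immunodeficient strain, on doxycycline food and water. In the OFF group, 3 mice then went without doxycycline for 48 h, so that FLT3-ITD was depleted. In the ON group, 3 mice stayed on doxycycline, so that FLT3-ITD was maintained. The groups thus differ in doxycycline itself as well as in FLT3-ITD, and the effects of each cannot be told apart here. Cells that the labels describe as viable and leukaemic were sorted from the marrow of each mouse, by a gate that no source used here gives, and their mRNA was read from the 3' end. The line is 1 engineered line, no source used here gives the ages of the mice, and its FLT3-ITD is transcribed from the doxycycline-responsive vector rather than from the Flt3 locus.

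FOXO proteins are transcription factors that act in the nucleus. When growth factor receptors activate PI3K, the kinase AKT phosphorylates FOXO proteins, which are then bound by adaptors encoded by the Ywha genes and exported to the cytoplasm. When PI3K signalling is low they stay in the nucleus and raise genes of quiescence, autophagy and energy saving, together with receptors and adaptors that sensitise the cell to insulin. FLT3-ITD is known to activate PI3K and AKT, and FOXO control is by location and modification of the protein, which mRNA counts do not measure.

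FOXO proteins bind the forkhead core GTAAACA, and the promoters whose windows held it are shown first. RefSeq promoters (GRCm38.p6, 300 bases each, 250 before the start site and 50 after) matched 7 of the 10 genes. The core, searched on both strands as GTAAACA or TGTTTAC, was in the windows of Txnip and Ypel3, and 3.65% of all 32851 promoters in the table held it. Its letters were not in the windows of Foxo1, Foxo3, Pik3ip1, Irs2 and Ccng2. For some of these, the RefSeq start site differs from the gene coordinates given below. The Irs2 window (chr8:11008880-11009179) lies wholly outside the gene. The windows of Pik3ip1 (chr11:3330481-3330780) and Ccng2 (chr5:93267323-93267622) lie wholly inside it. Txnip also held CACGNG repeated after a spacer of 5 bases (the spacer may hold any base), a form of the carbohydrate response element that MondoA and MLX bind. This pattern, searched also as CNCGTG with the same spacer for the other strand, was set with the Txnip sequence in view, and 0.0487% of all promoters held it. The 2 patterns did not overlap in Txnip. Below are the 250 bases before the Txnip start site (chr3:96557707-96557956, plus strand), with the forkhead core at position -121 and the carbohydrate pattern at position -85 in capitals, and 30 bases around the Ypel3 match (chr7:126776975-126777004, plus strand), with the forkhead core at position 25 in capitals. Positions count from 0 at the first transcribed base.
Txnip: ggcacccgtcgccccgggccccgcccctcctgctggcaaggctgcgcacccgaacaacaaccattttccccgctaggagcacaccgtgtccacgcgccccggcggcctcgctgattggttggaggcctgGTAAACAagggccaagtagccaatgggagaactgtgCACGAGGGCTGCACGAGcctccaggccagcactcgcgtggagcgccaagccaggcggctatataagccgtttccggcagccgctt
Ypel3: agctggtctcggtGTAAACAagtcgaggcg
The match is a description of letters and not of binding. The sequences stand beside unlike values: Ypel3 had the largest log2 fold change of the 10 genes and Txnip one near 0, as given below.

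The 6 libraries held 8347588 to 9329917 counts, and a single count (1) equalled at most 0.124 CPM, the unit that divides counts by the scaled library total. Replicate libraries differed from each other beyond counting error in every pair (chi-square per degree of freedom 2.98 to 39.5). OFF replicate 3 stood apart on the second principal component of log2 CPM, at -26.9, against 22.2 and 13.02 in OFF replicates 1 and 2. On the first component, OFF replicate 1 (-19.9) lay nearer than OFF replicates 2 and 3 (-37.3 and -45.0) to the ON libraries (32.4 to 35.0). The myeloid and MLL-AF9 markers Ptprc, Spi1, Cebpa, Mpo, Elane, Hoxa9, Hoxa10, Meis1 and Itgam were all detected and summed to 3327 to 3595 CPM in OFF and 1891 to 2161 CPM in ON. Of these 9, 5 rose (Ptprc, Mpo, Elane, Meis1 and Itgam) and none fell (0 lower by edgeR at an unadjusted p of 0.05). The 55.6% that rose stand against 17.3% of all tested rows, of which 17.5% were called lower. Most of the sum was Elane (mean 1626 CPM in OFF and 840 CPM in ON) and Mpo (803 CPM in OFF and 301 CPM in ON). Spi1, Cebpa, Hoxa9 and Hoxa10 were not called, and every OFF library of Hoxa10 was below every ON library. The 7 erythroid markers summed to 577 to 933 CPM in OFF and 150 to 212 CPM in ON, mostly globins, and the 5 that were tested rose, of which Alas2 met the minimum count in OFF libraries alone. The 6 B cell markers summed to at most 0.446 CPM in OFF and 0.868 CPM in ON, the 7 T and NK cell markers to at most 2.64 CPM in OFF and 0.914 CPM in ON (Cd8a was at 0 in all libraries), and the 5 megakaryocyte markers to at most 2.64 CPM in OFF and 1.03 CPM in ON. Stromal and endothelial markers summed to 7.91 to 11.7 CPM in OFF and 6.82 to 10.3 CPM in ON, with 8 listed, Lepr at 0 in all libraries and the 1 tested member not called. The 7 resident macrophage markers summed to 17.5 to 24.5 CPM in OFF and 39.6 to 43.3 CPM in ON. That sum was mostly Vcam1, which fell. Mrc1 was higher in OFF and met the minimum count in OFF libraries alone, so that its test depended on the change itself, and C1qa, C1qb, C1qc, Cd163 and Timd4 had 0 to 3 counts in each library. The part of erythroid or macrophage RNA in the results below was not tested. In bulk samples, fewer cells of a type and less RNA per cell cannot be told apart.

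After 48 h without doxycycline, 7 of the 10 genes rose and none fell. Ypel3, Trp53inp1, Ccng2, Klhl24, Pik3ip1, Irs2 and Insr were between 1.70-fold and 3.40-fold higher in OFF than in ON. Foxo1, Foxo3 and Txnip did not pass. Of the 10, 0 were lower by edgeR even at an unadjusted p of 0.05, and 0 were called lower by DESeq2 or by limma. Over all rows, DESeq2 called 2085 of 13652 lower, limma 2122 of 12287, and edgeR 17.5% by adjusted p. The share of all tested rows at an unadjusted p of 0.05 was not counted, for these genes or for any list. The median log2 fold change of the 10 genes was 1.15, against 0.00 over all 13652 tested rows, of which 34.8% were called at an adjusted p of 0.05 (edgeR's quasi-likelihood test with Benjamini-Hochberg adjustment) and 17.3% were called higher in OFF. These counts describe genes chosen with earlier results known. The 3 OFF values lay above the 3 ON values in 8 of the 10, as they did in 23.8% of tested rows. Pik3ip1 met the minimum count only through the OFF libraries, in which it is high, so its place among the tested rows depends on the change itself.

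**Figure D1:**
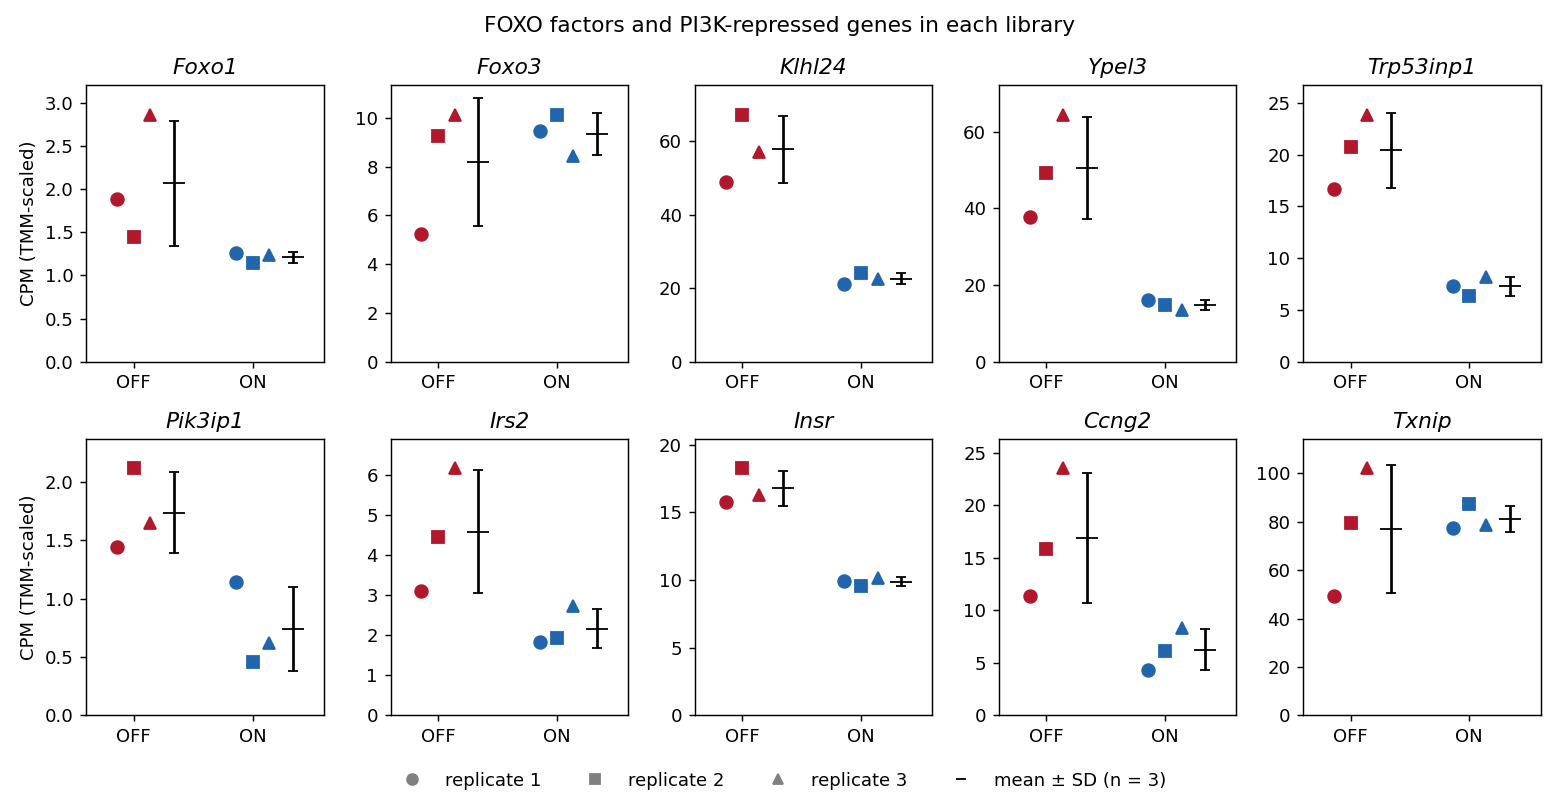
CPM of each of the 10 genes (linear axis from 0, scaled to each gene) in the 3 OFF and 3 ON libraries, with symbols for the replicate number and the mean ± SD beside each group. The groups are apart in 8 panels and overlap for Foxo3 and Txnip, where OFF replicate 1 is below every ON library.

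Of the factors, Foxo1 (GRCm38, chromosome 3, 52268336 to 52353221, plus strand) had few counts. Its level was 1.89, 1.45 and 2.86 CPM in OFF replicates 1 to 3 (17, 13 and 26 counts), against 1.26, 1.139 and 1.24 CPM in ON replicates 1 to 3 (11, 10 and 10 counts). All OFF libraries were above all ON libraries, with OFF replicate 3 the highest. The log2 fold change was 0.76 (SE 0.37) and did not pass (edgeR adjusted p = 0.122), with a 95% interval of -0.02 to 1.55. Without OFF replicate 3 the log2 fold change was 0.46 (edgeR adjusted p = 0.403). Foxo3 (chromosome 10, 42181841 to 42276755, minus strand), a FOXO factor known for its role in haematopoietic stem cell maintenance, stood at 5.22, 9.24 and 10.1 CPM in OFF, against 9.48, 10.1 and 8.43 CPM in ON. OFF replicates 2 and 3 lay within the ON range and OFF replicate 1 well below it. The log2 fold change was -0.19 (SE 0.22, edgeR adjusted p = 0.538), and the 95% interval of -0.66 to 0.28 contains a fall to 0.632-fold and a rise to 1.21-fold. Without OFF replicate 1 its sign turned, to 0.05 (edgeR adjusted p = 0.865). Of the other factors of the family, Foxo4 (chromosome X, 101254528 to 101260873, plus strand) rose, at 5.78, 7.13 and 7.92 CPM in OFF, against 4.68, 4.44 and 3.597 CPM in ON. The groups did not overlap, and the log2 fold change was 0.71 (SE 0.22, edgeR adjusted p = 0.0216). The call was lost without OFF replicate 2, ON replicate 2 or ON replicate 3 (edgeR adjusted p = 0.0682, 0.0593 and 0.0981). Foxo6 had 1 count in all and was not tested.

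The largest change was that of Ypel3 (chromosome 7, 126776955 to 126780514, plus strand), a small protein of the Yippee-like family known in human cells as a p53-responsive inhibitor of growth. It stood at 37.9, 49.1 and 64.5 CPM in OFF, against 16.1, 14.8 and 13.5 CPM in ON. Every OFF library was above the highest ON library, and OFF replicate 3 was the highest. Ypel3 averaged 50.5 ± 13.3 CPM in OFF and 14.8 ± 1.29 CPM in ON (SD, n = 3 each), 3.40-fold higher in OFF (log2 fold change 1.77, SE 0.18, edgeR adjusted p = 1.06e-05). Trp53inp1 (chromosome 4, 11156431 to 11174379, plus strand) encodes a stress protein induced by p53 that takes part in autophagy. Its values were 16.7, 20.7 and 23.9 CPM in OFF, against 7.31, 6.38 and 8.19 CPM in ON. The lowest OFF library was above the highest ON library, and the log2 fold change was 1.49 (SE 0.17, edgeR adjusted p = 1.86e-05). Klhl24 (chromosome 16, 20097542 to 20129221, plus strand), a Kelch protein that recruits substrates to a cullin ubiquitin ligase, stood at 48.9, 67.2 and 57.1 CPM in OFF, against 21.1, 24.0 and 22.6 CPM in ON. Here OFF replicate 2 was the highest and the ON libraries lay close together. Klhl24 averaged 57.7 ± 9.16 CPM in OFF and 22.6 ± 1.45 CPM in ON (SD, n = 3 each), with a log2 fold change of 1.35 (SE 0.13) and the smallest p of the 10 genes (edgeR adjusted p = 4.91e-06).

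Ccng2 (chromosome 5, 93267257 to 93276231, plus strand) encodes an atypical cyclin associated with exit from the cell cycle. It stood at 11.3, 15.8 and 23.5 CPM in OFF, against 4.34, 6.15 and 8.31 CPM in ON. Both groups were spread, with the highest library 2.08 times the lowest in OFF and 1.92 times in ON, and they did not overlap. The order was the same in both, with replicate 1 the lowest and replicate 3 the highest. The log2 fold change was 1.44 (SE 0.29, edgeR adjusted p = 0.00272).

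Insr (chromosome 8, 3122061 to 3279617, minus strand), the insulin receptor, stood at 15.8, 18.3 and 16.3 CPM in OFF, against 9.94, 9.57 and 10.2 CPM in ON. On the log2 CPM scale it had the smallest SD of the 10 genes in both groups (0.11 in OFF and 0.04 in ON), and the groups were well apart. It averaged 16.8 ± 1.32 CPM in OFF and 9.89 ± 0.305 CPM in ON (SD, n = 3 each), with a log2 fold change of 0.76 (SE 0.14, edgeR adjusted p = 9.33e-04). Foxo1 and Insr thus had log2 fold changes of almost the same size, and Insr passed where Foxo1 did not, with 142 to 164 counts per OFF library against 13 to 26 for Foxo1. Irs2 (chromosome 8, 10984681 to 11008458, minus strand), the adaptor that links the insulin receptor to PI3K, stood at 3.11, 4.46 and 6.16 CPM in OFF, against 1.83, 1.94 and 2.73 CPM in ON. OFF replicate 1 lay only just above the highest ON library. The log2 fold change was 1.08 (SE 0.31, edgeR adjusted p = 0.0147), but with either ON replicate 1 or 2 left out it did not pass (edgeR adjusted p = 0.0720 and 0.0679). Pik3ip1 (chromosome 11, 3330401 to 3342971, plus strand), a membrane protein that inhibits the catalytic subunit of PI3K, stood at 13, 19 and 15 counts in OFF, against 10, 4 and 5 counts in ON. These are 1.44, 2.12 and 1.65 CPM in OFF and 1.142, 0.456 and 0.620 CPM in ON, and ON replicate 1 came near the lowest OFF library. The log2 fold change was 1.21 (SE 0.42, edgeR adjusted p = 0.0363) with a 95% interval of 0.31 to 2.11. The call did not survive DESeq2 (adjusted p = 0.1104), the absence of a filter on low counts (0.0709 by edgeR) or the loss of OFF replicate 2, ON replicate 2 or ON replicate 3 (0.142, 0.170 and 0.131 by edgeR).

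**Figure D2:**
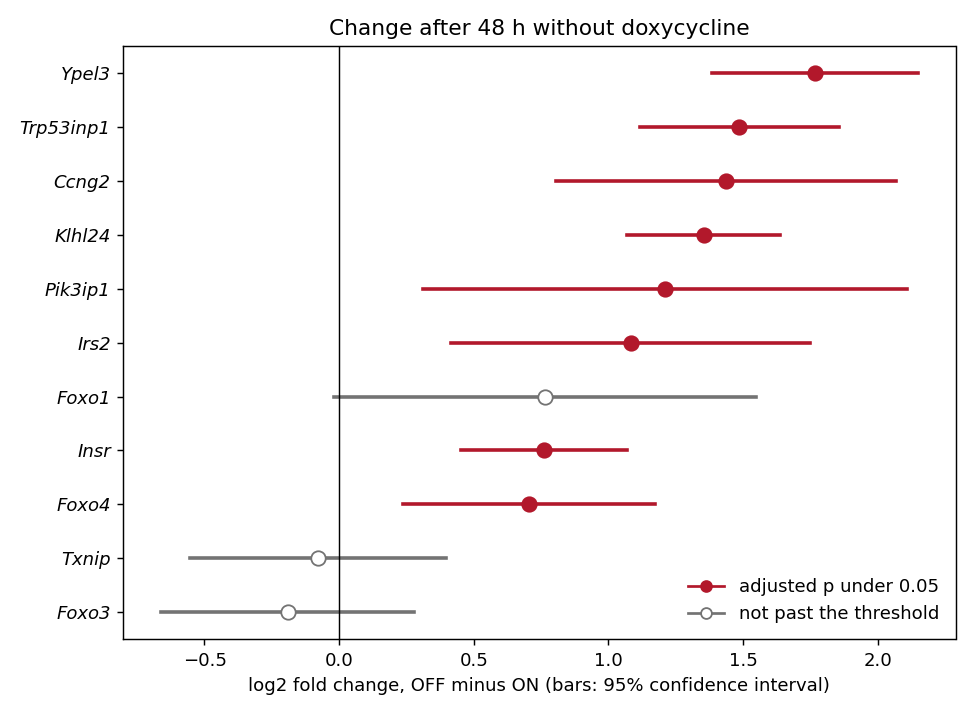
Log2 fold change (OFF minus ON) with its 95% confidence interval for the 10 genes and Foxo4, ordered by size. Filled points passed an adjusted p of 0.05, from Ypel3 at 1.77 down to Foxo4 at 0.71, and the intervals of Foxo1, Txnip and Foxo3 include 0.

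Txnip (chromosome 3, 96557957 to 96561883, plus strand) encodes an alpha-arrestin that binds thioredoxin and lowers glucose uptake. It stood at 49.2, 79.5 and 102 CPM in OFF, against 77.4, 87.5 and 78.8 CPM in ON. The OFF libraries lay on both sides of the ON range, with OFF replicate 1 below it and OFF replicate 3 above it. Txnip averaged 76.9 ± 26.5 CPM in OFF and 81.2 ± 5.45 CPM in ON (SD, n = 3 each), and the log2 fold change was -0.08 (SE 0.21, edgeR adjusted p = 0.811). Its 95% interval of -0.55 to 0.40 leaves room for a 0.682-fold to a 1.32-fold level. That range is below the folds estimated for the 7 genes that rose, but it overlaps the 95% interval of Pik3ip1 (1.24-fold to 4.32-fold). Without OFF replicate 1 the log2 fold change was 0.16 and without OFF replicate 3 it was -0.33 (edgeR adjusted p = 0.316 and 0.143). Txnip shares 606 exonic bases with the antisense gene Gm15441, which had 12 counts over the OFF libraries and 11 over the ON libraries. Arrdc4, a relative of Txnip that also responds to glucose, stood at 5.66, 6.24 and 6.38 CPM in OFF, against 8.34, 6.61 and 8.56 CPM in ON, without passing (log2 fold change -0.36, edgeR adjusted p = 0.164). Mlxip, which encodes MondoA, gave 0.36 and its partner Mlx gave -0.18, neither past the threshold (edgeR adjusted p = 0.0981 and 0.348). Mlxip passed without OFF replicate 1 (edgeR adjusted p = 0.0456). Mlx shares 385 exonic bases with Psmc3ip on the opposite strand, up to its 3' end. How reads of the shared bases were assigned is not known, so the row of Mlx may hold reads of Psmc3ip or lack its own. Mlxipl, which encodes ChREBP, had at most 2 counts in a library and was not tested. None of the 3 tested genes of the MondoA and MLX list was called in either direction by edgeR, DESeq2 or limma, and 1 (Mlxip) had an unadjusted edgeR p under 0.05.

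Within the OFF group the 10 genes varied from library to library, and the rows called higher in OFF leaned the same way. OFF replicate 1 was the lowest OFF library for 9 of them, all but Foxo1. Among all tested rows OFF replicate 1 was the lowest of the 3 in 34.7%, and among the 2356 rows called higher in OFF it was the lowest in 62.6%. OFF replicate 3 was the highest for 7 of the 10, against 39.2% of all tested rows and 55.4% of rows called higher. The SD of log2 CPM was larger in OFF than in ON for 9 of the 10 genes, Pik3ip1 being the exception, as it was for 68.6% of tested rows. For Txnip this SD was 0.53 in OFF and 0.09 in ON, and for Foxo3 0.48 in OFF and 0.13 in ON, against medians of 0.20 in OFF and 0.13 in ON over all tested rows. The ribosomal RNA locus took 17.9%, 17.2% and 10.1% of counts in OFF replicates 1 to 3 and 11.3% to 16.2% in ON, and the erythroid sum was 577, 933 and 825 CPM in OFF replicates 1 to 3; the part of either in this spread was not tested.

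**Figure D3:**
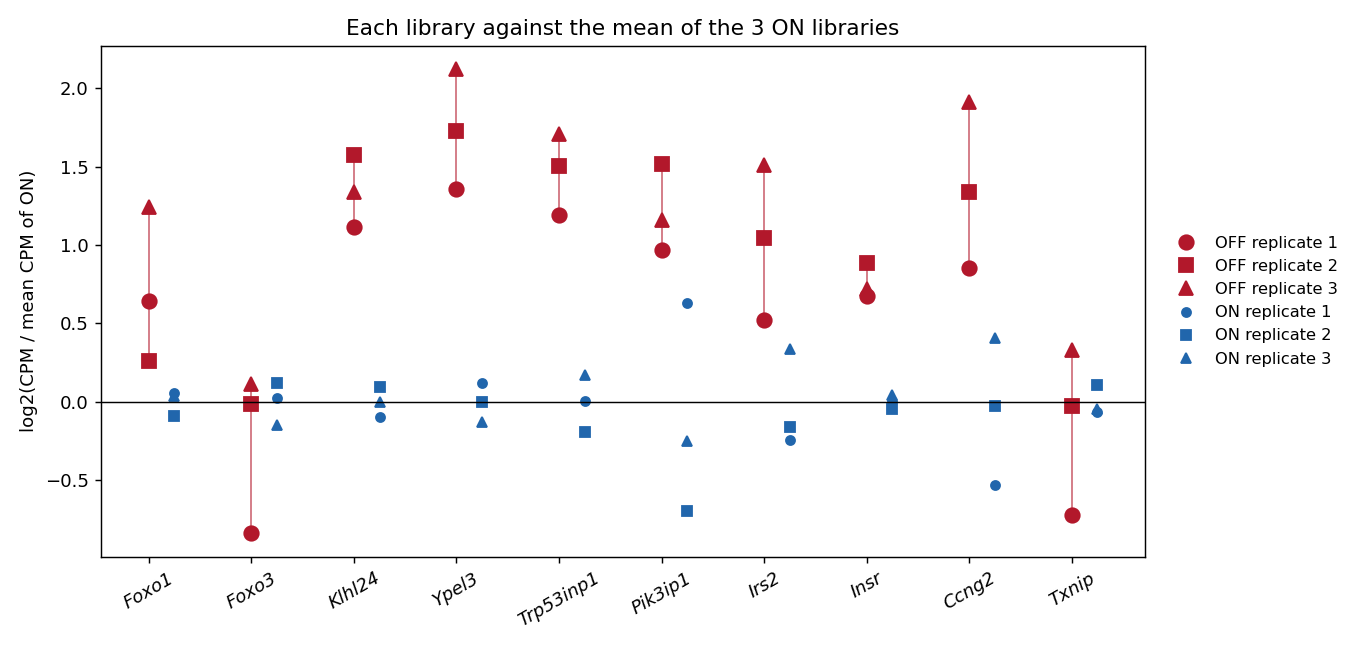
Log2 ratio of each library's CPM to the mean CPM of the 3 ON libraries, for the 10 genes, with OFF libraries in red and ON libraries in blue. OFF replicate 1 (circle) is the lowest OFF library for 9 genes, and for Foxo3 and Txnip it is below 0.

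Of 30 other genes described as FOXO targets, 29 were in the table and 22 were tested. Of these, 11 rose, 4 fell and 7 did not pass, with a median log2 fold change of 0.39. The shares, 50% higher and 18.2% lower, stand against 17.3% and 17.5% of all tested rows, so that the share that fell was near the background. Pink1, a kinase that marks damaged mitochondria for removal, stood at 7.89, 9.80 and 11.4 CPM in OFF, against 4.45, 4.67 and 3.35 CPM in ON (log2 fold change 1.22, SE 0.22, edgeR adjusted p = 5.67e-04). All its OFF libraries were above all its ON libraries. Named after their values were seen, the cell cycle inhibitor Cdkn1b (0.63), the autophagy genes Ulk1 (0.98) and Map1lc3b (0.80) and the repressor Bcl6 (1.72, at 2.21 CPM in OFF and 0.653 CPM in ON) also rose on the log2 scale. Bcl6 met the minimum count in OFF libraries alone, and its call was lost in limma on the authors' log2 table and without ON replicate 3 (adjusted p at most 0.0573). The 4 that fell were Klf2, Ddit4, Sod2 and Gabarapl1. The mTORC1 inhibitor Ddit4, which also belongs to the stress response of ATF4, stood at 6.33, 4.57 and 6.49 CPM in OFF, against 13.02, 19.2 and 12.8 CPM in ON (log2 fold change -1.37, SE 0.21, edgeR adjusted p = 1.56e-04). The transcription factor Klf2 stood at 21.3, 20.3 and 22.0 CPM in OFF, against 86.7, 75.1 and 31.9 CPM in ON, so that its ON libraries were far apart. Its call (edgeR adjusted p = 0.00976) was lost without OFF replicate 1 or OFF replicate 3 (0.112 and 0.122) and when rows of low count were kept (0.0734). The superoxide dismutase Sod2 (-0.69) fell in every setting tried, and the autophagy gene Gabarapl1 (-0.56) lost its call in 4 of 13 settings (without OFF replicate 2, ON replicate 1 or ON replicate 2, and by DESeq2). The death gene Bcl2l11, a FOXO target in blood cells, gave 0.40 without passing (edgeR adjusted p = 0.0920).

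**Figure D4:**
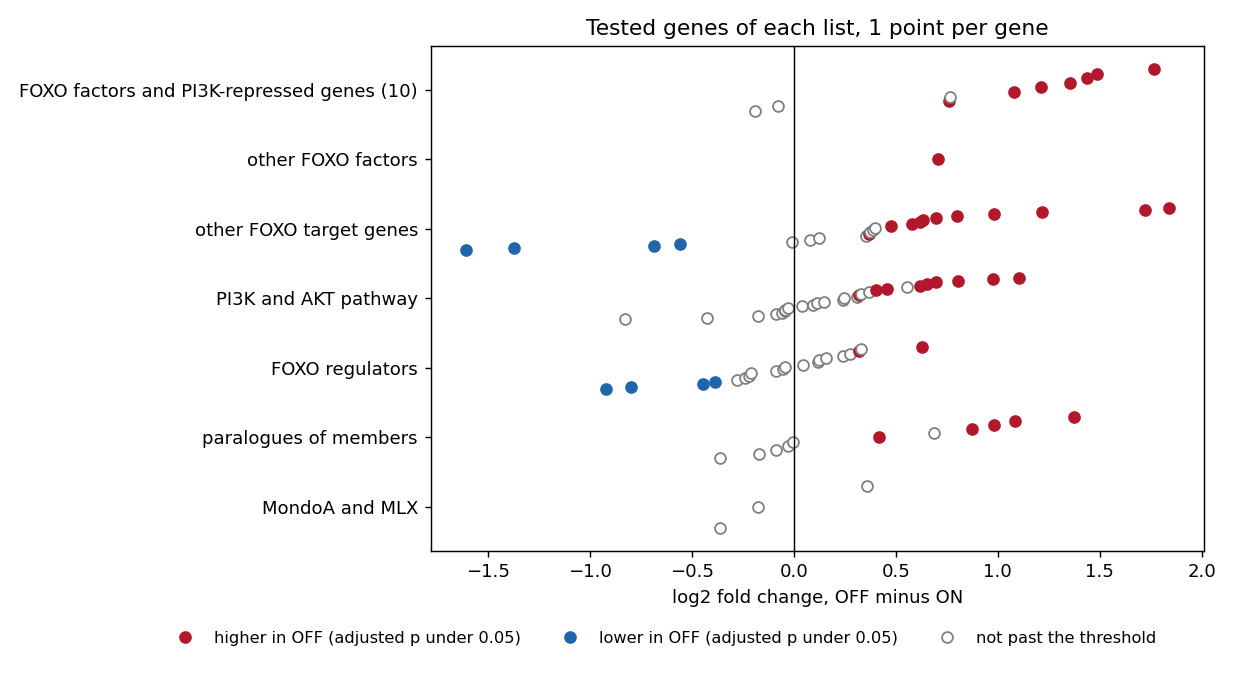
Log2 fold change (OFF minus ON) of every tested gene in 7 lists, 1 point per gene, red where higher and blue where lower in OFF at an adjusted p of 0.05 and open where neither. The other FOXO targets have 11 red and 4 blue points, and the PI3K and AKT pathway 9 red and none blue.

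Of 30 listed genes of the PI3K and AKT pathway itself, 27 were tested, 9 rose, none fell and 18 did not pass, with a median log2 fold change of 0.25. The 33.3% that rose stand against 17.3% of all tested rows, and 1 of the 9, Grb10, met the minimum count in OFF libraries alone. At an unadjusted p of 0.05 edgeR gave 11 higher and 2 lower (Pik3r2 and Sgk1). By adjusted p, edgeR called 17.5% of all tested rows lower. DESeq2 and limma called 0 pathway genes lower, whereas over all rows they called 2085 of 13652 and 2122 of 12287 lower. The count of 9 rested on single libraries, at 4 without OFF replicate 2, 4 without ON replicate 1, 2 without ON replicate 2 and 3 without ON replicate 3, where 12.6%, 12%, 11.5% and 11.7% of all tested rows were called higher. Pik3r5, a regulatory subunit of PI3K gamma, stood at 5.78, 7.69 and 10.2 CPM in OFF, against 5.14, 4.78 and 3.597 CPM in ON (log2 fold change 0.80, SE 0.24, edgeR adjusted p = 0.0186). This call needed OFF replicates 2 and 3 and ON replicates 2 and 3 (0.0550 to 0.0916 without each). Mlst8, a subunit shared by both mTOR complexes, stood at 15.4, 20.9 and 28.1 CPM in OFF, against 13.7, 12.4 and 13.6 CPM in ON (0.70, SE 0.19, edgeR adjusted p = 0.0103). It did not pass once ON replicate 2 was left out (0.0596). Mlst8 shares 997 exonic bases with Bricd5 on the opposite strand, which had 12 counts over the OFF libraries and 8 over the ON libraries. Named after their values were seen, the AKT-related kinase Sgk3 (0.65) rose in every setting tried, while the kinases Akt1 (-0.06, adjusted p = 0.711) and Akt2 (0.04, adjusted p = 0.810) did not pass by edgeR. The AKT relative Sgk1 gave -0.83 (edgeR adjusted p = 0.0534) and passed downwards without OFF replicate 3, without ON replicate 1 and when rows of low count were kept.

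Of 20 regulators of FOXO proteins, all tested, 2 rose, 4 fell and 14 did not pass, with a median of -0.05. The 10% that rose were fewer, in share, than the 17.3% of all tested rows, and the 20% that fell were near the 17.5%. The kinase genes Mapk8 (24.0, 26.8 and 22.7 CPM in OFF, against 14.7, 17.3 and 15.5 CPM in ON) and Stk4 rose, by log2 values of 0.63 and 0.32 (edgeR adjusted p = 0.00218 and 0.0335). The call of Stk4 was lost in 7 of 14 settings, among them each library left out other than OFF replicate 3. Ywhag, which encodes an adaptor of the kind that retains phosphorylated FOXO proteins in the cytoplasm, stood at 67.7, 61.8 and 73.4 CPM in OFF, against 124, 112 and 116 CPM in ON (log2 fold change -0.80, SE 0.11, edgeR adjusted p = 7.07e-05). The arginine methyltransferase Prmt1 stood at 186, 119 and 120 CPM in OFF, against 251, 301 and 255 CPM in ON (-0.92, SE 0.16, edgeR adjusted p = 7.22e-04). Neither gene's groups overlapped. Of the other Ywha genes listed, named after their values were seen, none was called by edgeR. Their log2 fold changes were -0.05 for Ywhab, -0.21 for Ywhae, 0.12 for Ywhah, -0.04 for Ywhaq and -0.22 for Ywhaz. The other regulators that fell were the export receptor Xpo1 (-0.45) and the deacetylase Sirt1 (-0.39). The call of Xpo1 was lost without ON replicate 1 or ON replicate 3, and that of Sirt1 in 7 of 14 settings, among them the loss of OFF replicate 2 or of any ON library (adjusted p at most 0.0802 for Xpo1 and 0.143 for Sirt1).

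Among 17 relatives of the 10 genes, 11 were tested, 5 rose, none fell (0 lower by edgeR at an unadjusted p of 0.05) and 6 did not pass, with a median of 0.42. The 45.5% that rose stand against 17.3% of all tested rows, of which 17.5% were called lower. Klhl6, a Kelch protein like Klhl24, stood at 28.5, 32.5 and 41.3 CPM in OFF, against 14.0, 14.2 and 11.0 CPM in ON (log2 fold change 1.38, SE 0.16, edgeR adjusted p = 1.81e-05). Arrdc1, an alpha-arrestin like Txnip, stood at 18.4, 19.6 and 25.4 CPM in OFF, against 10.05, 10.3 and 9.55 CPM in ON (1.09, SE 0.16, edgeR adjusted p = 1.13e-04). In both genes the groups were apart, whereas those of Txnip overlapped. The other 3, named because the count is small, were Ypel5 (0.88) and Ypel1 (0.42) of the family of Ypel3, and Trp53inp2 (0.98), an autophagy regulator like Trp53inp1. The call of Ypel1 was lost in 9 of 14 settings, among them the loss of OFF replicate 3 or of any ON library (adjusted p at most 0.203), while those of Ypel5 and Trp53inp2 were kept in all settings that could test them.

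Across settings, Klhl24, Ypel3, Trp53inp1, Insr and Ccng2 rose in all 14 alternatives, including each library left out in turn. Their log2 fold changes ranged over 1.23 to 1.46 for Klhl24, 1.56 to 1.94 for Ypel3, 1.36 to 1.61 for Trp53inp1, 0.70 to 0.80 for Insr and 1.13 to 1.68 for Ccng2.

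**Figure D5:**
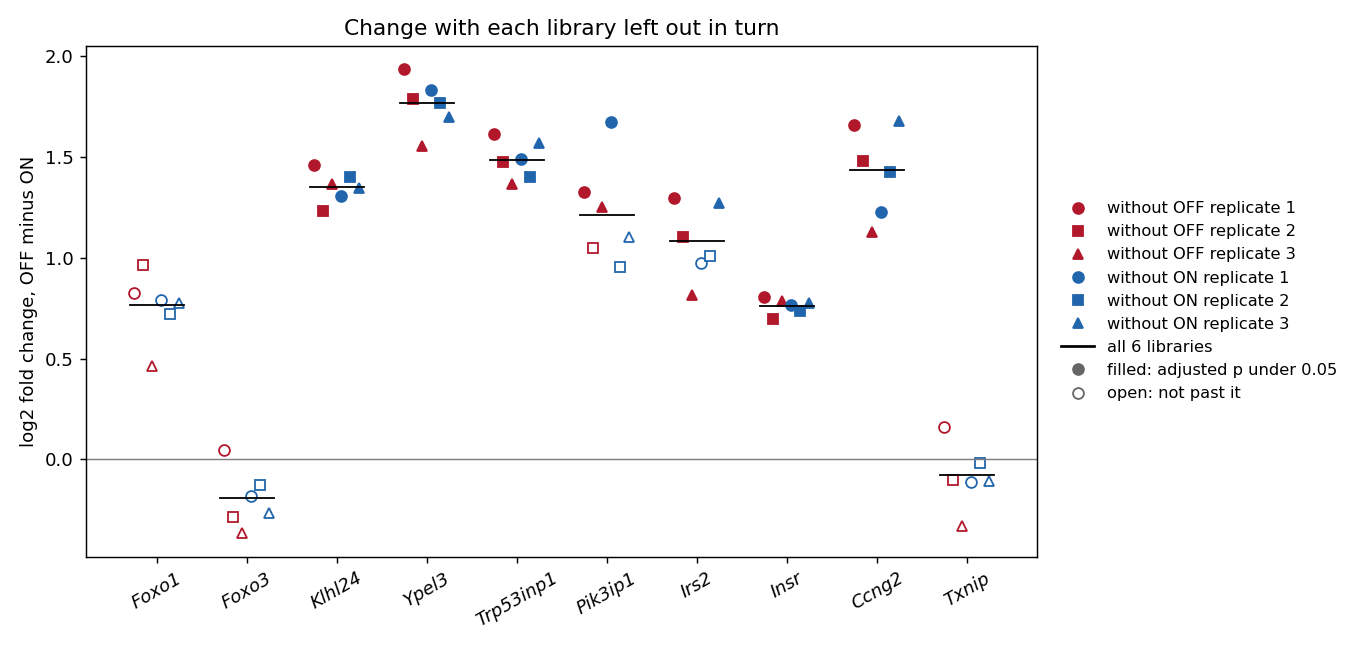
Log2 fold change (OFF minus ON) of the 10 genes with each of the 6 libraries left out in turn, filled where the adjusted p was under 0.05, and as a black line with all libraries. Points for Klhl24, Ypel3, Trp53inp1, Insr and Ccng2 are filled throughout, those of Irs2 and Pik3ip1 are open in some, and those of Foxo3 and Txnip lie on both sides of 0.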

How the data were processed

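Per the submitters' processing notes, the tools included HISAT2 2.0.4, featureCounts from Subread 1.6.3, and cutadapt 1.9.1, with limma 3.42.2 run in R 3.6.1 and genome build mm10. No source used here gives their annotation or strand setting. Libraries came from a QuantSeq 3' kit, per the labels' protocols, so a count reflects the 3' end of a gene. The authors' deposited table holds raw counts per gene. The authors' second deposited table holds log2 values for 12287 genes and served only as an alternative.

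Of 54838 rows, 1105 without a name (0.145% to 0.172% of counts) were left out. Rows were kept by filterByExpr (minimum count 10, minimum total 15), scaled by TMM and tested, OFF against ON, with glmQLFit and glmQLFTest in edgeR 4.0.16 (R 4.3.3), with no covariate and Benjamini-Hochberg adjustment over all 13652 tested rows at 0.05. The SE is the size of the log2 fold change divided by the square root of F, and 95% intervals use it with the test's degrees of freedom. Replicates were 3 mice per group. The fit was tested on simulated data in which 200 of 13652 genes changed 2-fold. It recovered 81% of them, and 5.81% of its calls were false. The simulation gave every gene the same dispersion and changed fewer genes than were called here, so it does not give the error rate of these calls. A count of 0 allows up to 3 counts, at most 0.372 CPM, and such limits cover counting error only. Coordinates are from GENCODE M21 (GRCm38, the same build as mm10), and promoters are from RefSeq. Alternatives were other scalings and filters, DESeq2 1.42.0, limma 3.58.1 on the authors' log2 table, removal of the ribosomal RNA locus rows, a replicate block and each library left out.

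The members and gene lists were chosen with earlier results of these data known. Beside the 10 members, the rule named from each list the 2 genes that rose most and the 2 that fell most of those called and averaging 5 CPM or more, and all genes of the other FOXO factor list and the MondoA and MLX list. Other genes are marked as named after their values were seen. A gene that the rule names is not reported here.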

Additional observations from a re-analysis of the deposited data

How the results depend on the processing

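Of the 10 members, 5 to 7 were called higher and none lower under every alternative. Over these alternatives, 8.81% to 21.1% of all tested rows were called higher. The counts over all tested rows and over the other FOXO targets stayed within 1.5 times. The number of PI3K and AKT pathway genes called higher ranged from 2 to 8 when each library was left out, and the number called lower from 0 to 2. In those settings 11.5% to 19.3% of all tested rows were called higher. With no filter on low counts 1 pathway gene (Sgk1) was called lower. Among the genes named, signs turned only for 3 that were not called. With a library left out, the log2 fold change ranged over -0.37 to 0.048 for Foxo3 and -0.33 to 0.16 for Txnip (positive without OFF replicate 1), and over -0.024 to 0.097 for Akt2 (negative without ON replicate 3). The cause was not tested. Over all tested rows, same-numbered libraries did not deviate together (correlations of 0.04, -0.09 and -0.06), and not every library correlated best with its own number. With the replicate number as a block, 6 members and 8 PI3K and AKT genes were called higher, as were 15.9% of all tested rows. Pik3ip1 was not among these members (adjusted p = 0.0526 by edgeR). In either direction, 4403 of 13652 rows were called against 4746 without the block. With a minimum of 10 CPM in 3 libraries 6 members could be tested and 5 were called, beside 21.1% of all tested rows called higher. The authors' log2 table held 8 members, of which 6 were called, beside 17.4% of its rows called higher. Foxo1 and Pik3ip1 had 4 to 26 counts per library, and the part of depth in their calls was not tested.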
